A study of Homo sapiens with 6 samples.

Results

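Amino acid transporters are membrane proteins that carry amino acids across the plasma membrane, and 10 of their genes are described here in HEK293, a line of human embryonic kidney cells: SLC7A11, SLC7A1, SLC7A2, SLC7A5, SLC7A6, SLC3A2, SLC1A4, SLC1A5, SLC38A1 and SLC38A2. They were taken by symbol from a table of 30960 genes, all 10 were found, and all 10 passed the filter on low values together with 14275 of the genes in all. The members were chosen by symbol, but with the earlier difference in CPM between PKI and inPKI in these same libraries known, that of SLC7A11 in particular. Their differences are therefore a description, and the adjusted p-values beside them support nothing further. Cells had been transfected 1 day after plating with 158 ng of plasmid per square centimetre and RNA was taken at 48 h. The plasmid of the PKI group encoded green fluorescent protein (GFP) fused to PKI1-24, and that of the control group, inPKI, encoded GFP fused to inPKI1-24. Both groups thus carried a transfected GFP fusion in the same line, with 3 libraries each, named A, B and C. No untransfected cells are part of the comparison, and the share of cells that took up the plasmid was not measured. In bulk RNA, fewer cells with a given transcript and less of it per cell cannot be told apart. The labels do not say whether A, B and C were separate cultures, and p-values therefore measure only a spread between libraries that may be technical.

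PKI proteins are inhibitors of protein kinase A, the kinase that cAMP activates, and act by occupying its catalytic subunit. The transporters work in a few classes. SLC7A11, SLC7A5 and SLC7A6 are light chains that reach the cell surface only when joined by a disulfide bond to the heavy chain SLC3A2, also called CD98 or 4F2hc. SLC7A11 with SLC3A2 forms the cystine antiporter, system xc-, which takes up cystine in exchange for glutamate and so supplies cysteine for glutathione. SLC7A1 and SLC7A2 carry arginine and lysine without a heavy chain, SLC1A4 and SLC1A5 exchange alanine, serine, cysteine and, for SLC1A5, glutamine, and SLC38A1 and SLC38A2 take up glutamine and other small neutral amino acids with sodium. Many of these genes are known targets of ATF4, the transcription factor of the amino acid shortage response, and SLC7A11 is also a known target of NRF2, the factor of the oxidant response.

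The libraries held 17244715 to 23589438 reads as recovered from the table. Levels are in CPM, the deposited unit, which scales reads to the size of the library. PKIA, the gene of the alpha form of PKI, stood at 9.68 ± 1.46 CPM in the control and 43.9 ± 1.96 CPM with PKI (mean ± SD, n = 3), so the libraries separate by their labels, although reads of the plasmid and of the cell's own gene cannot be told apart there. PKI libraries differed more from each other than inPKI libraries did. The mean chi-square per gene between a pair of libraries, which is 1 for counting noise alone, was 2.30 to 4.08 among inPKI pairs and 14.9 to 44.2 among PKI pairs, with the highest value between PKI B and PKI C. Of 7 genes listed for HEK293 cells (NEFL, NEFM, INA, KRT8, KRT18, PAX2 and CDH2), 7 had a mean of at least 1 CPM, with a summed level of 271 to 275 CPM in inPKI and 241 to 274 CPM in PKI. Of the markers of other cell types, 2 of 5 fibroblast genes reached that mean (summed 18.7 to 21.0 CPM in inPKI and 19.3 to 22.6 CPM in PKI, with DCN at 0). So did 3 of 4 keratinocyte genes (27.9 to 51.7 and 25.6 to 29.8 CPM), 1 of 5 leukocyte genes (1.16 to 1.68 and 1.36 to 1.92 CPM, with CD3E at 0) and 1 of the 2 erythroid genes analysed here (5.29 to 7.18 and 5.95 to 6.80 CPM, with ALAS2 at 0). Their part in the results below was not tested.

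Promoter sequence is shown first, for the genes whose levels went together or differed most between the groups among those matched. RefSeq windows on GRCh38.p14 of 300 bases, 250 before and 50 after an annotated start, were matched by symbol for 8 of the 10 genes, in 14 windows; SLC7A11 and SLC7A2 are not among these 8. The C/EBP-ATF response element (CARE), searched on both strands as TGATGNAA, is the sequence through which ATF4 acts. It was found in 5 of the 14 windows, 1 each of SLC7A1, SLC3A2, SLC1A4, SLC1A5 and SLC38A1, against 3.62% of all 35116 windows. Since many of these genes are known ATF4 targets and some have several windows, nothing is read from that share. In capitals are the CARE matches in 3 of those windows, 5′ to 3′ in the direction of the gene. The SLC3A2 window is chr11:62881449-62881748 on the plus strand, that of SLC1A5 is chr19:46784765-46785064 on the minus strand, and that of SLC1A4 is chr2:64989149-64989448 on the plus strand. All 3 lie at starts inside the longest gene model. In the windows of these genes at the outer start of the gene model, CARE was not found.
SLC3A2: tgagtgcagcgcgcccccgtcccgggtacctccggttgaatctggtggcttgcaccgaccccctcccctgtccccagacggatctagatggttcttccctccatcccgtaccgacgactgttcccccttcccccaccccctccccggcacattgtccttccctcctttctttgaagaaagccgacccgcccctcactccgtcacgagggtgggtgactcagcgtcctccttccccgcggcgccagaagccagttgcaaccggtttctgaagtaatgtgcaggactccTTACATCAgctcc
SLC1A5: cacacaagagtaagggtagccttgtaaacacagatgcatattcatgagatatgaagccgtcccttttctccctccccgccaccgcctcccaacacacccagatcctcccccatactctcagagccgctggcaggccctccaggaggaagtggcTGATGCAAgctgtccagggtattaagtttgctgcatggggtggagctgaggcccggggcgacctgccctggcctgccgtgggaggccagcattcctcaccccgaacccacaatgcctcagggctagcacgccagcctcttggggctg
SLC1A4: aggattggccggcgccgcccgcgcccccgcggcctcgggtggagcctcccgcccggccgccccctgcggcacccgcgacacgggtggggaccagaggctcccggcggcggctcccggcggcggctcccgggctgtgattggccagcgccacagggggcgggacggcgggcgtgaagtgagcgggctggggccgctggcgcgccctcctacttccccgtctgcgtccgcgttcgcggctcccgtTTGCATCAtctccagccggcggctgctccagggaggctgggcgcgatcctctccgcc
The match read TTACATCA in SLC3A2, its first base at 38 after the start, TGATGCAA in SLC1A5 and TTGCATCA in SLC1A4, while the windows of SLC7A1 and SLC38A1 both held TGATGAAA. The full cAMP response element (CRE), TGACGTCA, through which CREB acts downstream of protein kinase A, was in 0 of the 14 windows and in 1.85% of all windows. Its shorter form TGACG, searched on both strands and contained in the full element, was in 5 of the 14 windows and in 24.6% of all. The antioxidant response element (ARE) of NRF2, TGACNNNGC, which can overlap TGACG, was in 5 of the 14 and in 13.3% of all. A match is a description of these letters and is no measured binding site, and a window without one says only that the letters are not in that window.

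The levels of the 10 genes spanned a wide range. CPM divided by the length in kb of the longest GENCODE 29 transcript was highest for SLC1A5, the glutamine exchanger, at 95.9 ± 1.15 CPM per kb in inPKI (SD, n = 3). The heavy chain SLC3A2 followed with 72.9 ± 3.27 and its partner SLC7A5 with 66.7 ± 2.43 CPM per kb. A middle group held the cationic carrier SLC7A1 (31.9 ± 0.793), SLC38A1 (30.2 ± 0.407) and SLC38A2 (27.3 ± 0.386 CPM per kb). The light chain SLC7A6 measured 12.8 ± 0.861, SLC7A2 5.86 ± 0.333, the cystine carrier SLC7A11 3.61 ± 0.203 and SLC1A4 1.96 ± 0.0821 CPM per kb. In inPKI the ranges of neighbours in this order did not overlap. In PKI the order was the same except that SLC7A5 (67.3 ± 6.45) stood beside SLC3A2 (64.6 ± 7.28 CPM per kb) with overlapping ranges. Which transcript the cells use was not measured, and with the median transcript length in place of the longest SLC38A1 stood second, at 84.1 ± 1.13 CPM per kb in inPKI, after SLC1A5 at 142 ± 1.69. On that scale the inPKI range of SLC38A1 (82.8 to 85.0) overlapped that of SLC3A2 (75.8 to 82.9 CPM per kb). SLC38A2 (47.5) then stood above SLC7A1 (31.9 CPM per kb in inPKI).

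**Figure D1:**
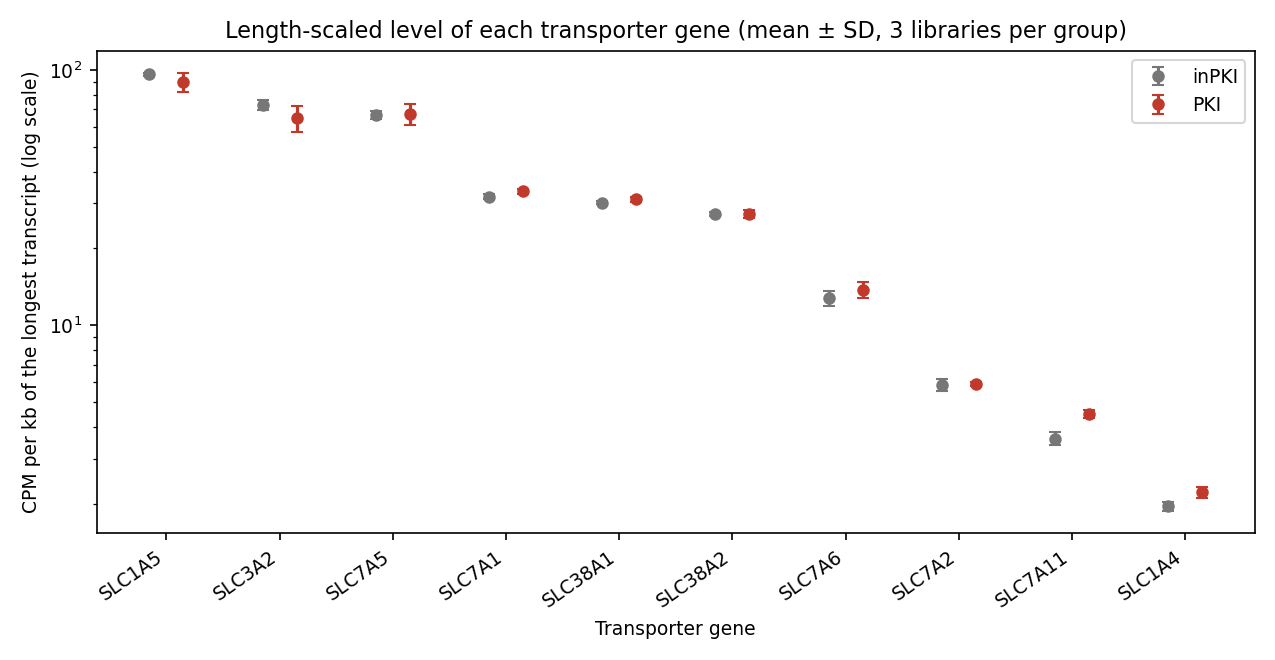
Level of each of the 10 transporter genes as CPM per kb of the longest transcript, on a log axis, as mean ± SD of 3 inPKI (grey) and 3 PKI (red) libraries. The genes keep nearly the same order in both groups, from SLC1A5 at 95.9 to SLC1A4 at 1.96 CPM per kb in inPKI.

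The cystine carrier SLC7A11 (ENSG00000151012.13, chromosome 4, 138164097 to 138242349 in GRCh38) had the widest relative difference of the 10. The control libraries A, B and C measured 37.0, 33.2 and 34.2 CPM, and the PKI libraries A, B and C 42.0, 43.1 and 45.3 CPM. The lowest PKI library lay above the highest inPKI library, and the means differed by 24.8%. On the log2(CPM + 1) scale the change, taken as PKI minus inPKI throughout, was 0.312 ± 0.061 (SE; 95% confidence interval 0.181 to 0.443), with an adjusted p of 0.0722 in limma, rank 28 by p among the 14275 genes. It rested on 828 to 1295 reads per library, for which counting alone gives a coefficient of variation of 3.34% in inPKI and 2.94% in PKI, against 5.63% and 3.84% observed. The antisense gene SLC7A11-AS1 held 0 to 13 reads per library; whether the counting used strand is not given in the sources used here. For SLC7A11 the authors' deposited table gives a log2 fold change, turned to PKI over inPKI, of 0.331 with a standard error of 0.445 and a p-value of 0.457. There the mean normalized signal of SLC7A11 was 2810, above the 828 to 1295 reads per library here. That comparison may thus rest on other libraries too.

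Whether SLC7A11 passed the threshold of 0.05 turned on the processing. It passed with DESeq2 on the recovered reads (adjusted p = 0.00353), with limma sample weights (0.0222), with the replicate letters as a block (0.0285) and with a filter of 5 CPM (0.0462), and it did not in the other 14 of 18 alternatives, where the adjusted p reached 0.442 without inPKI B. The difference between the groups went with annotated transcript length. Over 5 classes of equal size from the shortest to the longest transcripts the median log2 change of all tested genes went from -0.099 through -0.044, -0.012 and 0.012 to 0.075. SLC7A11, with a longest transcript of 9645 bp, lies in the longest class. With the trend on length removed its log2 change was 0.205 (adjusted p = 0.252).

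SLC3A2, the heavy chain that the light chains need (chromosome 11, 62856102 to 62888875), lay in the other direction. The control libraries A, B and C measured 163, 154 and 169 CPM, and the PKI libraries 152, 154 and 125 CPM. All PKI libraries were below all inPKI libraries, but PKI B and inPKI B nearly touched and PKI C differed from the inPKI mean by -23.0%. The log2 change was -0.180 ± 0.073 (SE; interval -0.335 to -0.024, adjusted p = 0.306), and without PKI C it was -0.083 (adjusted p = 0.472). Its longest transcript, 2222 bp, lies in the second-shortest class. With the length trend removed the log2 change of SLC3A2 was -0.140 (limma adjusted p = 0.437).

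The light chain SLC7A5, which brings in large neutral amino acids such as leucine, measured 309, 290 and 309 CPM in the 3 control libraries, in the order A, B, C, and 322, 322 and 271 CPM in the PKI libraries. PKI A and PKI B were above and PKI C below the inPKI libraries. The log2 change was 0.008 ± 0.070 (interval -0.140 to 0.157), and 0.090 without PKI C. SLC7A6, a light chain that exchanges cationic for neutral amino acids, measured 79.8, 75.9 and 86.7 CPM in the controls and 94.4, 84.0 and 83.2 CPM in PKI A, B and C. Its groups overlapped, with PKI A highest, and its log2 change was 0.108 ± 0.064 (interval -0.029 to 0.246, adjusted p = 0.470). It was 0.050 without PKI A, 0.065 without inPKI B, 0.159 without inPKI C and 0.060 with the length trend removed.

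Ratios to the heavy chain within each library were computed for SLC7A11, SLC7A5, SLC7A6 and one further light chain, SLC7A8. The ratio of SLC7A11 to SLC3A2 in CPM was 0.228, 0.215 and 0.203 in the control libraries A, B and C, and 0.276, 0.281 and 0.363 in the PKI libraries. For SLC7A5 the ratio was 1.869 ± 0.034 in inPKI and 2.130 ± 0.040 in PKI (SD, n = 3 each), and for SLC7A6 0.498 ± 0.013 and 0.611 ± 0.060. For SLC7A8 it was 0.059 ± 0.004 and 0.064 ± 0.002. The PKI libraries lay above the inPKI libraries in the ratios of SLC7A11, SLC7A5 and SLC7A6 and overlapped them in that of SLC7A8. SLC3A2 itself was lower in PKI, and 35.4% of all other genes tested had a ratio to it with PKI above and no overlap, so nothing is read from these ratios. The exact 2-sided permutation p was 0.1 for SLC7A11, SLC7A5 and SLC7A6, the smallest that 3 libraries against 3 can give, and 0.2 for SLC7A8. The ratios share SLC3A2 as denominator, so they are no separate observations, and they show unequal differences of the genes of a pair and not which gene differed.

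The glutamine and small neutral amino acid exchangers are SLC1A5 and SLC1A4, and the difference between them was not tested. SLC1A5 measured 278, 273 and 279 CPM in the control libraries A, B and C, and 274, 269 and 233 CPM in the PKI libraries, and PKI C differed from the inPKI mean by -15.6%. The groups overlapped, since PKI A lay above inPKI B, and its log2 change was -0.098 ± 0.064 (interval -0.235 to 0.039), and -0.026 without PKI C. SLC1A4, an exchanger of alanine, serine and cysteine, measured 9.09, 9.23 and 8.52 CPM in the controls and 10.1, 10.6 and 9.67 CPM in PKI A, B and C. All PKI libraries were above all inPKI libraries, by a log2 change of 0.164 ± 0.086 (interval -0.020 to 0.348, adjusted p = 0.420). With 206 to 320 reads per library, counting alone gives SLC1A4 a coefficient of variation of 6.58% in inPKI and 6.07% in PKI, more than the 4.19% and 4.85% observed.

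The cationic carrier SLC7A1 measured 238, 228 and 238 CPM in the control libraries A, B and C, and 250, 248 and 240 CPM in the PKI libraries, so that PKI C lay just above the inPKI range. Its log2 change was 0.068 ± 0.053 (interval -0.045 to 0.181, adjusted p = 0.588), and with the length trend removed it was 0.000. SLC7A2, its relative, measured 41.9, 45.6 and 46.7 CPM in the controls and 45.4, 45.8 and 44.1 CPM with PKI, with a log2 change of 0.012 ± 0.059 (interval -0.114 to 0.137). The PKI range of SLC7A2 lay inside its inPKI range.

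SLC38A1 and SLC38A2, which work with sodium, had small spreads and small differences. SLC38A1 measured 246, 240 and 245 CPM in the control libraries A, B and C, and 250, 256 and 247 CPM in the PKI libraries, with a log2 change of 0.042 ± 0.052 (interval -0.069 to 0.153). Its PKI libraries were above its inPKI libraries by a narrow margin, and with the length trend removed the change was -0.039. SLC38A2, the carrier best known for induction when amino acids run short, measured 134, 131 and 135 CPM in the controls and 128, 138 and 133 CPM with PKI, with a log2 change of -0.003 ± 0.051 (interval -0.113 to 0.107). Its groups overlapped.

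**Figure D2:**
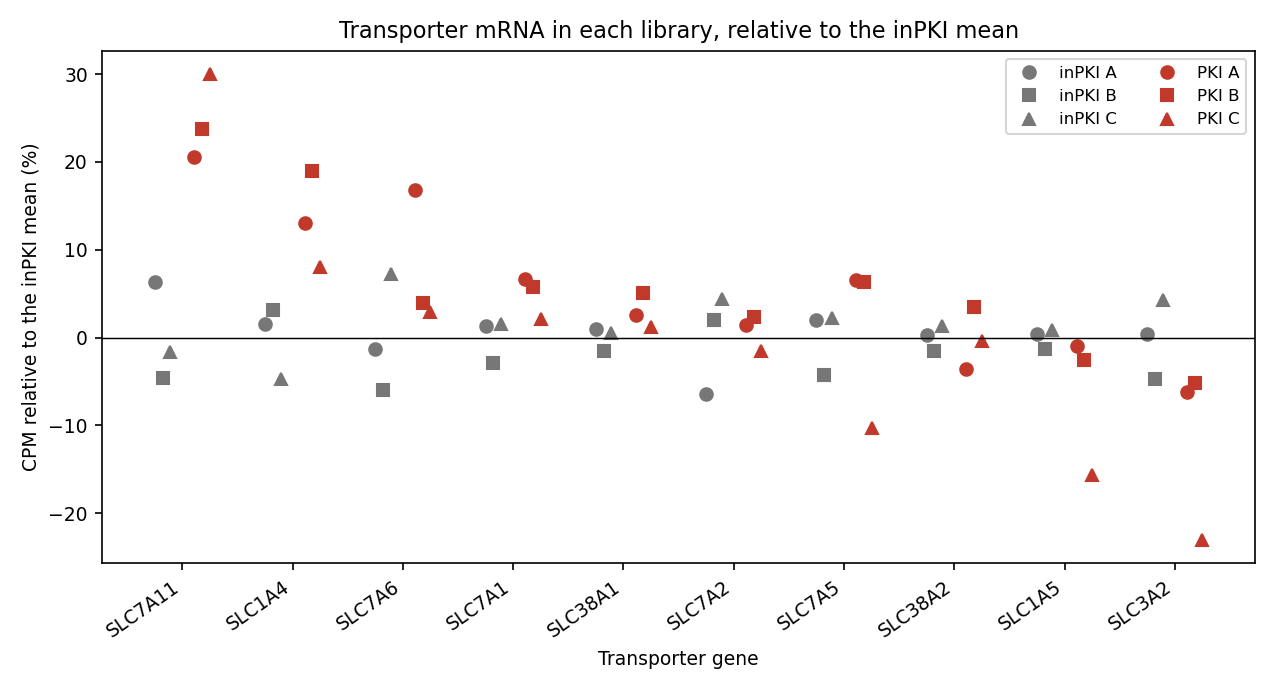
CPM of each transporter gene in each of the 6 libraries as a percent difference from the mean of the 3 inPKI libraries (grey inPKI, red PKI, 1 symbol per letter), ordered by log2 change. SLC7A11 lies above the inPKI libraries in all 3 PKI libraries, while PKI C is the low point of SLC7A5, SLC1A5 and SLC3A2.

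By limma, 0 of the 10 were past the threshold, beside 0.126% of all genes tested. DESeq2 gave 1 (SLC7A11) of the 9 with an adjusted p (it gave none for SLC1A4), where it called 2.73% of the genes with an adjusted p, and edgeR gave 0, where it called 0.0771%. Before adjustment, 2 of the 10 (SLC7A11 higher, SLC3A2 lower) and 13.7% of all genes had a limma p below 0.05. The ranges of the groups did not overlap in 5 of the 10 and in 19.7% of all genes. PKI was above in SLC7A11, SLC7A1, SLC1A4 and SLC38A1 (10.9% of all genes) and below in SLC3A2 (8.88% of all genes). Because the list was drawn up with this contrast known, nothing is read from these shares. The median log2 change of the 10 was 0.027, beside -0.007 for all genes tested, and 7 lay above 0, as did 6771 of the 14275 genes tested. In the authors' deposited table the adjusted p rounded to 1 for each of the 10.

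**Figure D3:**
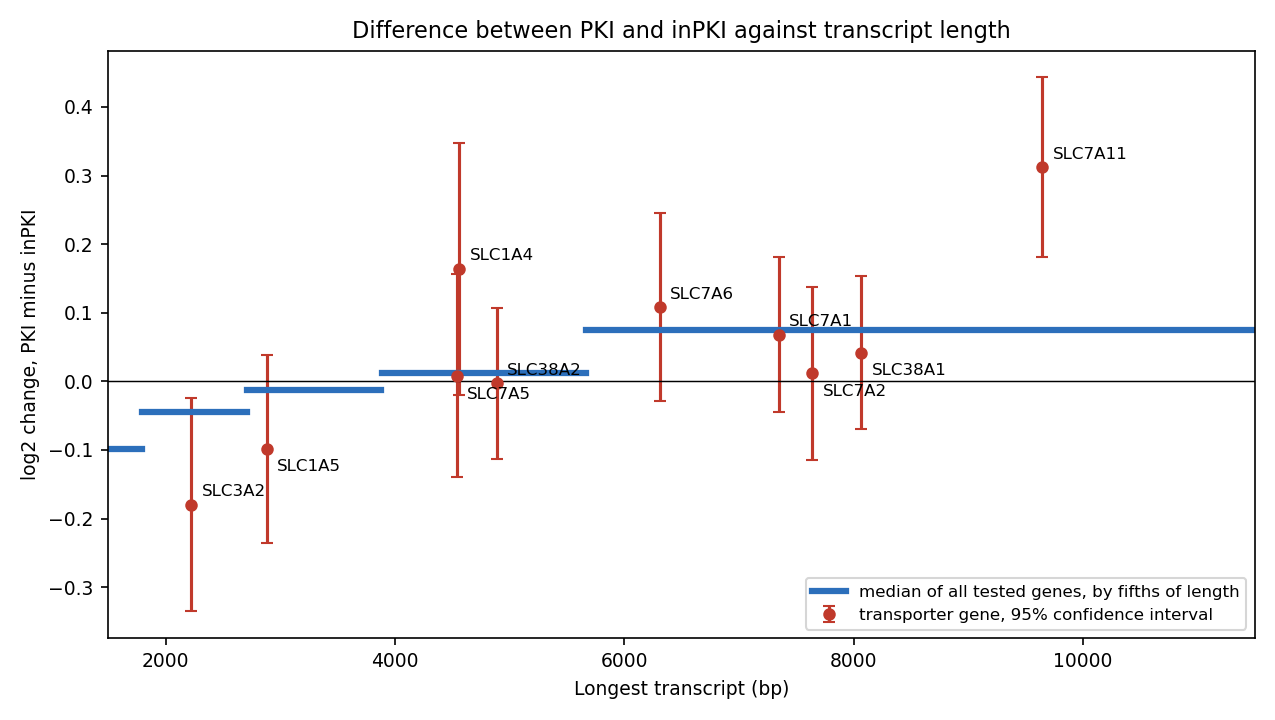
Change in log2(CPM + 1), PKI minus inPKI, of the 10 transporter genes against the length of their longest transcript (red, bars are 95% confidence intervals), with the median of all tested genes in 5 classes of length (blue). SLC3A2, in the second-shortest class, and SLC1A5, in the middle class, lie below 0. The longest, SLC7A11, at 0.312 lies above the median of its class, 0.075.

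How the 10 genes went together over the 6 libraries is given as Pearson's r of log2(CPM + 1), with no test, since the libraries share their group and their depth. The closest pair over the 6 libraries was SLC3A2 and SLC1A5, at 0.97, and 0.86 without PKI C. Without PKI C the closest was SLC7A1 and SLC7A5, at 0.99 from 0.60. SLC7A5 had an r of 0.72 with SLC3A2 and 0.78 with SLC1A5, and without PKI C these values were -0.17 and -0.19. SLC7A1 and SLC38A1 had an r of 0.90 with PKI C and without it. SLC7A11 ran with SLC1A4 (0.77), SLC7A1 (0.73) and SLC38A1 (0.72) and against SLC3A2 (-0.71). Without PKI C these values were 0.89, 0.93, 0.94 and -0.57, and that of SLC7A11 with SLC7A5 was 0.89, from -0.06 with it. Of all 11060 genes ranked, with a mean of at least 5 CPM, those most like SLC7A11 over the 6 libraries were TICRR (r = 0.996), SGMS2 (0.996), KATNAL1 (0.995), MKLN1 (0.992) and LRRC58 (0.989). SLC1A4 had rank 1045 in that order and SLC3A2 rank 9738.

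Beyond the 10, 35 other amino acid carriers were listed, of which 33 were analysed and 20 had enough reads to be tested. By limma and edgeR 0 of the 20 passed, and 2 had an unadjusted limma p below 0.05, beside 13.7% of all genes. By DESeq2 0 passed of the 12 for which it gave an adjusted p, SLC6A17 not among them. The median log2 change of the 20 was -0.015. The nearest was SLC6A17, a vesicular carrier of neurons, at 2.39 ± 0.371 CPM in the controls and 3.72 ± 0.100 CPM with PKI, a log2 change of 0.480 ± 0.125 (SE, adjusted p = 0.145), and 0.239 with a pseudocount of 5. CTNS, which exports cystine from lysosomes, measured 25.7 ± 1.12 and 23.0 ± 1.77 CPM, a log2 change of -0.153 ± 0.072 (adjusted p = 0.365; -0.093 without PKI C), and SLC38A10 had -0.060 ± 0.052 (adjusted p = 0.628; -0.037 without inPKI B). Among further light chains of SLC3A2, SLC7A8 held 225 to 259 reads per control library and 177 to 294 per PKI library (log2 change -0.058 ± 0.102), while SLC7A7 (0.530 and 0.559 CPM) and SLC7A10 (0.0397 and 0.0491 CPM) were below the filter. SLC3A1, the other heavy chain, held 0 to 8 reads per library.

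The genes that use cystine, through glutathione and thioredoxin, gave 16 tested of 18, with a median log2 change of -0.063. In limma 0 passed, and edgeR called 0. Before adjustment 5 of the 16 had a limma p below 0.05 (1 higher, 4 lower), beside 13.7% of all genes. As the lists were chosen with earlier results known, nothing is read from this share. Of all genes with an adjusted p, DESeq2 called 2.73%. DESeq2 called 1 of 13 with an adjusted p, TXNRD1, the thioredoxin reductase, at 164 ± 6.40 CPM in the controls and 182 ± 8.03 CPM with PKI (log2 change 0.146 ± 0.056, limma adjusted p = 0.282, DESeq2 adjusted p = 0.0409). TXN, its substrate thioredoxin, had -0.158 ± 0.060 (adjusted p = 0.282) and GPX1, a glutathione peroxidase, -0.178 ± 0.065 (adjusted p = 0.260). With the length trend removed these were -0.045 and -0.083, and without PKI C -0.097 and -0.101. The subunits of the enzyme that opens glutathione synthesis measured 39.7 ± 0.917 and 40.3 ± 1.89 CPM for GCLC and 18.6 ± 1.39 and 20.4 ± 1.10 CPM for GCLM, in inPKI and PKI.

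In the ATF4 response list 24 of 25 genes were tested, with a median log2 change of -0.056. By limma and edgeR 0 passed, and by DESeq2 0 of 19 with an adjusted p. At an unadjusted p below 0.05 in limma stood 3 of the 24, beside 13.7% of all genes. ATF4 itself stood at 733 ± 27.1 CPM in the controls and 679 ± 60.9 CPM with PKI (log2 change -0.113 ± 0.076), and ASNS, asparagine synthetase and a classic ATF4 target, 141 ± 6.13 and 132 ± 13.3 CPM. PSPH, of serine synthesis, had -0.180 ± 0.077, SESN2, a leucine sensor, 0.143 ± 0.063 and JDP2, a repressor of the AP-1 family, 0.263 ± 0.122, with adjusted p from 0.322 to 0.362. PSPH stood at -0.102 without PKI C, and JDP2 at 0.134 without PKI A and 0.166 with a pseudocount of 5. Of the 24 genes, 9 lay above 0 and 15 below, beside 6771 above and 7504 below among all genes tested.

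Of the 12 genes of the NRF2 list, 0 passed in limma or edgeR, and 0 of 10 with an adjusted p did in DESeq2. Beside 13.7% of all genes, 0 of the 12 had an unadjusted limma p below 0.05. The list leaves out SLC7A11, counted among the transporters, and TXNRD1, GCLC and GCLM, counted with the genes that use cystine. Of those, SLC7A11 and TXNRD1 had such a p, with PKI higher, and GCLC and GCLM did not. The median of the 12 was -0.004. In the list the smallest p belonged to the ferritin light chain FTL (-0.131 ± 0.069), BACH1, the repressor of NRF2 sites (0.134 ± 0.073), and the ferritin heavy chain FTH1 (-0.110 ± 0.060). With the length trend removed FTL and FTH1 stood at -0.018 and -0.020. FTL was -0.063 without PKI C, and BACH1 0.087 without PKI B and 0.075 without inPKI B. Of the 24 genes through which lysosomes report amino acids to mTORC1, 0 passed in limma or edgeR, and 0 of 19 with an adjusted p did in DESeq2. An unadjusted limma p below 0.05 was found for 4 of these 24, beside 13.7% of all genes. LAMTOR4 and LAMTOR2, of the Ragulator scaffold, had -0.168 ± 0.060 and -0.175 ± 0.064, and the GTPase gene RRAGA -0.127 ± 0.054 (adjusted p 0.251 to 0.323). With the length trend removed they stood at -0.043, -0.044 and -0.058. The list's median was -0.018.

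**Figure D4:**
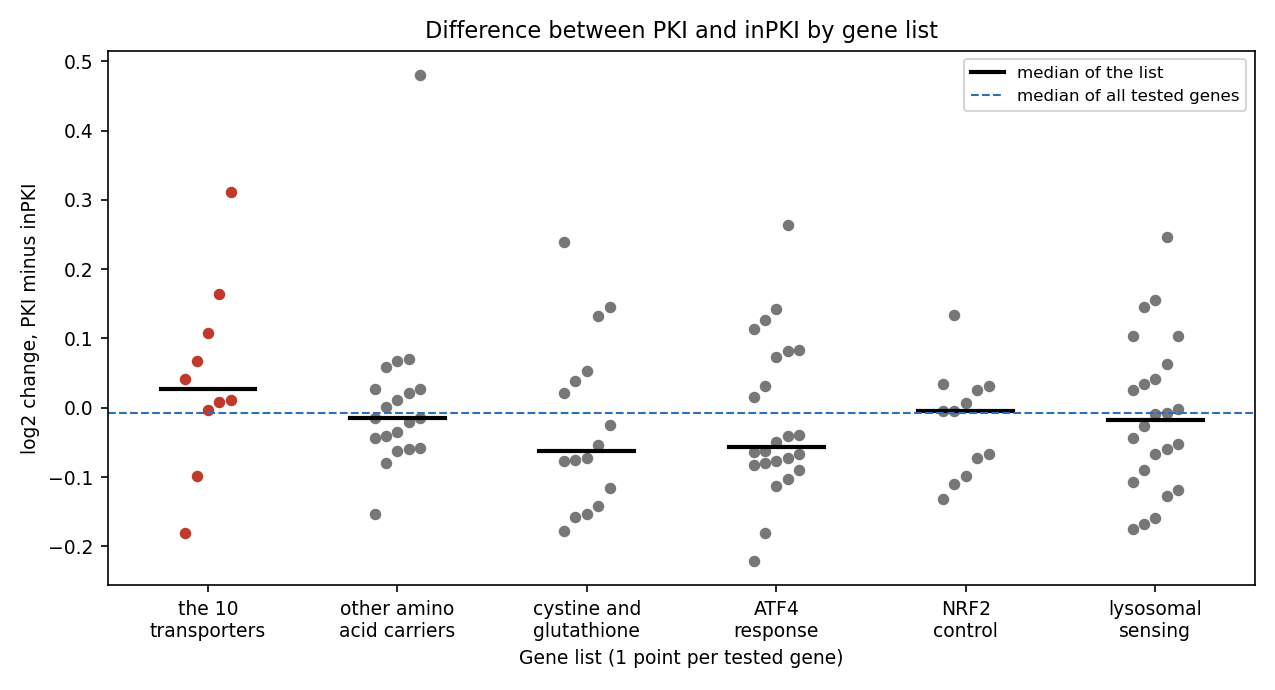
Change in log2(CPM + 1), PKI minus inPKI, of each tested gene in the 10 transporters (red) and 5 related lists (grey), with the median of each list (black) and of all tested genes (dashed). The transporter median is 0.027 and those of the other lists lie between -0.063 and -0.004.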

How the data were processed

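RNA from 6 libraries of HEK293 cells was measured by mRNA sequencing. STAR 2.5.2b and cutadapt 1.14 are listed, with RSEM 1.3.0, DESeq2 1.20.0 and hg19, per the submitters' processing notes, which give no role or setting. The authors deposited CPM for 30960 genes, with columns summing to 754299 to 785007; the table's name adds RSEM and TMM. Each value was a whole multiple of the smallest in its column (100%, tolerance 0.01 reads), so whole reads were recovered; they may be rounded RSEM estimates, and intervals cover no PCR error. The authors' deposited comparison gives, per the file headers, a mean normalized signal per gene, its log2 fold change and error, a test statistic (a score, not used), p-value and adjusted p-value; its log2 sign was turned, since it was positive where inPKI was higher in 941 of 941 genes that differed clearly. In 2069 genes at 0 in the 6 libraries its mean is above 0, so it may rest on other libraries too.

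The scale was log2(CPM + 1), on which changes of low genes are understated, for 14275 genes with at least 1 CPM in at least 3 libraries. Differences were fitted with limma 3.58.1 (R 4.3.3, 2-sided, with a mean-variance trend) and p-values were adjusted by Benjamini-Hochberg over the whole table at a threshold of 0.05; unnamed adjusted p-values are limma's. edgeR 4.0.16 and DESeq2 1.42.0 were run on recovered reads. The tests were tried on simulated counts. The transporters and lists were chosen with earlier results of these data known. Named genes are the 10 transporters, PKIA, up to 3 genes of smallest p per other list, and the 5 genes with the highest correlation with SLC7A11; others, such as ATF4, ASNS, GCLC, GCLM, SLC7A7, SLC7A8, SLC7A10 and SLC3A1, were chosen after their values were seen. Positions and lengths come from GENCODE 29 on GRCh38, by gene identifier (30795 matched, 165 not), and are not those of the authors' alignment. Figures were drawn with matplotlib 3.10.9.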

Additional observations from a re-analysis of the deposited data

How the results depend on the processing

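The 18 alternatives were pseudocounts of 0.25 and 5, no filter and a filter of 5 CPM, 2 scalings, a replicate block, limma without a trend and with sample weights, edgeR, DESeq2, removal of the length trend, and leaving out each library in turn. The count of transporter genes past the threshold was 0 as reported and 1 (SLC7A11) with DESeq2, the filter of 5 CPM, sample weights and the replicate block, and 0 with any 1 library left out. The sign of 6 of the 10 changes was kept in all 18, and that of SLC7A2, SLC7A5, SLC38A1 and SLC38A2 was not. Of the genes that use cystine, 0 passed as reported and 1 with DESeq2. The other 4 lists gave 0 in each alternative. Over all genes the count was 18 as reported (14 higher, 4 lower), 216 with DESeq2 (110 and 106), 144 with sample weights (108 and 36), 124 with the replicate block (102 and 22), 11 with edgeR (10 and 1), 11 with an equal sum (10 and 1), 9 with the length trend removed (9 and 0), and 4 without a trend and with no filter (4 and 0). With 1 library left out it ranged from 9 (without inPKI B) to 114 (without PKI B), with 37 without PKI A, 46 without PKI C and 11 without inPKI A. The split was 10 and 3 with median-ratio scaling. With the filter of 5 CPM the count over all genes was 24 (20 higher, 4 lower). Whether the letters mark a pairing is not known. Deviations of same-letter libraries correlated at 0.017, 0.014 and 0.028, although 6 of 6 libraries correlated best with their own letter, a hint from the data only. Each same-letter value is counted from the inPKI and from the PKI library, so the 6 are not separate observations. Causes of the shifts between the alternatives were not tested. With 206 to 320 reads, SLC1A4 is limited by counting; the others held 828 reads or more per library.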
